A study of Rattus norvegicus with 6 samples.

Results

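Fragments of the nuclear methionine tRNAs (MetCAT in the alignments) were examined in small RNA libraries of AR42J, a rat line derived from exocrine pancreas. Taurocholate libraries, 3 in number, came from cells given 200 µM of its sodium salt, a bile salt, for 30 min, and 3 further libraries came from untreated cells of the same line. The members were all read sequences aligned to a mature nuclear tRNA with the anticodon CAT and to no other tRNA, with each read counted 1 time. They numbered 1696 of 67949 read sequences aligned to tRNA, and 13584 of 1671615 reads. Another 2 sequences with 3 reads also matched a valine tRNA and were left out. The taurocholate libraries held 2221, 2001 and 2565 Met reads and the untreated libraries 1964, 2797 and 2036. It is not stated whether replicates were separate cultures, and every p-value here therefore reflects the spread among these libraries alone, part of which may be technical.

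Cells keep separate tRNAs for methionine. The initiator tRNA brings methionine to the start codon on the small ribosomal subunit and is marked by a run of G-C pairs at the end of its anticodon stem, next to the loop. The elongator tRNA inserts methionine at AUG codons inside a reading frame. Fragments of tRNAs are named here by where they lie, allowing 3 nt of slack at the tRNA ends. A tRF-5 (up to 30 nt) or tiRNA-5 (31 nt or more) contains the 5′ end, a tRF-3 or tiRNA-3 of the same lengths contains the 3′ end, and an i-tRF is an internal piece without either end. Longer tiRNAs are known as products of cuts in the anticodon loop during stress. Here the name is given by length and tRNA end alone, wherever the other end lies.

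The 13 gene copies named in the alignments fell into 3 groups by the reads they share. The initiator group had 8 copies, with GGG and CCC on the sides of the 7-base anticodon loop, and 4163 reads in 725 sequences. Elongator A had 3 copies, all on chromosome 17, and 6858 reads in 506 sequences. Elongator B had 2 copies, on chromosomes 19 and 7, and 2497 reads in 424 sequences, while 66 reads matched elongators A and B equally. No read was shared between an initiator and an elongator copy. Mature sequences of the initiator and elongator A are shown because the groups differ in where their fragments lie. Each is spelled by the aligned reads, 5′ to 3′ and with its CCA end, and the capitals mark the most abundant fragment of the group; for elongator A the copy named chr17.trna3725 is given, of which 3 bases were spelled only by reads with a mismatch elsewhere.
initiator: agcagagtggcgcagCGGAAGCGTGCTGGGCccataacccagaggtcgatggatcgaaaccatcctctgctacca
elongator A: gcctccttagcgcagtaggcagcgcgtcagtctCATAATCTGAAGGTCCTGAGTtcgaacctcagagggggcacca

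Positions are numbered along the mature tRNA, with its 5′ base as 1. The initiator has 75 nt with CCA and its anticodon at 33 to 35, and the elongators have 76 nt and the anticodon at 34 to 36. Lined up on the anticodon, elongators A and B were identical at 70 of 76 positions (92.11%), whereas elongator A and the initiator were identical at 32 of 75 (42.67%). Within the groups, copies were rarely told apart: 6732 of the elongator A reads matched chr17.trna1866 and chr17.trna3725 alike, 91 matched only chr17.trna3725 and 7 only chr17.trna1866, which differ by A59G. The elongator A copy chr17.trna3930 had only 37 aligned reads, 3 of them its own. The initiator copy chr17.trna3952, which differs from the other initiator copies by A19G, had 12 reads of its own. Values are therefore given for groups and not for gene copies.

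The libraries held 254998 to 338310 tRNA reads with taurocholate and 193750 to 348451 untreated. miR-148a, the abundant miRNA of acinar pancreas, was high in all of them, but the other acinar markers miR-216a, miR-216b and miR-217 had 3, 5 and 5 reads over the 6 libraries. The summed level of the 4 acinar markers was nearly all miR-148a. It ranged from 284615 to 407508 CPM (counts scaled to a common total of miRNA precursor reads) with taurocholate and from 353040 to 422852 CPM untreated. Of the markers listed for neuroendocrine or islet cells, miR-7a-1 averaged 48464.5 CPM with taurocholate and 57919.8 CPM untreated, and miR-7b 220.8 and 318.1 CPM. In the other direction, miR-9a-1 averaged 17313.8 CPM with taurocholate and 11722.9 CPM untreated, and miR-375 47.4 and 17.0 CPM. The library taurocholate 1 stood apart in the last base of its reads: a mismatched G ended 25.6% of its elongator reads, against 1.65% and 2.43% in the other taurocholate libraries and 5.15%, 1.23% and 1.80% in the untreated libraries. Comparisons between the treatments were repeated without that library and in reads free of mismatches.

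Met tRNAs gave mainly internal fragments. The i-tRF share of Met reads was 89.2%, 94.0% and 91.5% in the taurocholate libraries and 94.8%, 91.9% and 91.8% in the untreated libraries. In all other nuclear tRNAs together it was 14.2%, 17.5% and 19.6% with taurocholate and 21.5%, 17.9% and 22.0% untreated, so the ranges are far apart in every library. Over the 6 libraries the mean was 92.2 ± 1.97% for Met and 18.8 ± 2.92% for other tRNAs (SD, n = 6; exact paired permutation test, two-sided, p = 0.031, the smallest that 6 pairs allow; Benjamini-Hochberg adjusted over 5 classes 0.039; a comparison added after the values were seen). The tRF-3 share was 5.97 ± 1.32% for Met and 49.9 ± 2.04% for other tRNAs, the tRF-5 share 0.254 ± 0.102% and 13.8 ± 2.67%, and the tiRNA-5 share 1.09 ± 0.807% and 16.8 ± 3.87%, each lower for Met in 6 of 6 libraries with the same p.

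The initiator and the elongators differed in the mix of classes. Of initiator reads, 67.1%, 80.8% and 79.5% were i-tRF in the taurocholate libraries and 85.4%, 80.0% and 80.0% in the untreated ones. Of elongator reads, 97.2%, 98.9% and 97.3% were i-tRF in the taurocholate libraries and 98.6%, 97.7% and 98.0% in the untreated ones. Every initiator value lay below every elongator value, and the mean difference, initiator minus elongator, was -19.1 ± 5.67 percentage points (SD over 6 libraries; exact paired permutation test, two-sided, p = 0.031, adjusted over 5 classes 0.039). It was -22.0 points in the taurocholate libraries and -16.3 points in the untreated libraries.

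The tRF-3, fragments of the 3′ arm that carry the amino acid end, took up much of the gap. The initiator tRF-3 share was 16.6 ± 3.60%, against 1.37 ± 0.509% for the elongators, higher in 6 of 6 libraries. The tRF-5 share was 0.609 ± 0.271% for the initiator and 0.103 ± 0.0802% for the elongators, also higher in 6 of 6 libraries. The tiRNA-5 share of the initiator was 9.15%, 3.11% and 2.75% with taurocholate and 0.882%, 4.99% and 1.43% untreated. Of its 155 reads, 104 ran from 1 to 51, through the whole anticodon loop. At 51 nt they have the longest length in the files, so their 3′ end was not reached. No elongator read was a tiRNA-5: 0 of 9421 reads pooled over the 6 libraries, which allows a share of up to 0.0318% (counting error only; in a single library, the 95% Wilson interval reached up to 0.287%), and only 10 elongator reads began at the 5′ end at all. These class differences had the same exact p and adjusted p as i-tRF, whereas the tiRNA-3 share, 0.286 ± 0.165% for the initiator and 0.583 ± 0.213% for the elongators, did not pass (exact p = 0.0625, adjusted p = 0.0625). With 95% Wilson intervals, which cover counting error only, a single library's share was known to within 3.78 points for initiator i-tRF, 3.39 points for initiator tRF-3 and 0.81 points for elongator i-tRF.

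**Figure D1:**
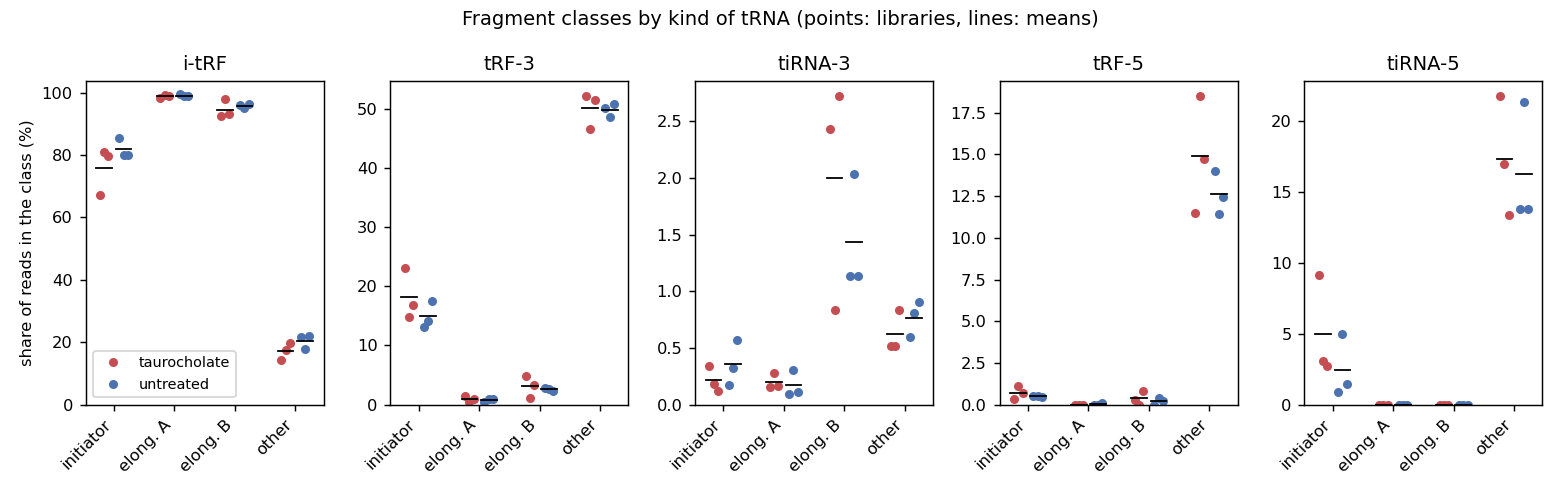
Share of reads (%) in each fragment class for the initiator, elongator A, elongator B and all other nuclear tRNAs, with a point for each library (taurocholate red, untreated blue) and a line for each mean of 3 libraries; the vertical scale differs between panels. The i-tRF share is 67.1% or more in every Met group and library and at most 22.0% in all other nuclear tRNAs pooled. Single other anticodons can be as high as Met, such as Arg-CCT at 98.9% and Pro-TGG at 93.2%. The tiRNA-5 share is at 0 in both elongators.

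Between the elongators the mix was closer. The i-tRF share was 98.9 ± 0.379% for elongator A and 95.2 ± 2.12% for elongator B, higher for A in 6 of 6 libraries. The tRF-3 share was 0.872 ± 0.376% for A and 2.84 ± 1.24% for B, lower for A in 6 of 6 libraries. Each of these differences had p = 0.031 (exact paired permutation test, two-sided, n = 6), the smallest that 6 pairs allow. Adjusted over 5 classes it was 0.052, which does not pass 0.05. The 5 classes include tiRNA-5, which was 0 in every library for both elongators and so could not differ. The comparison was added after the values were seen.

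By class mix, the anticodon nearest to the elongators among 34 with at least 1000 reads was Arg-CCT, at 1.02 percentage points of total variation distance (the share of reads that would have to change class, from means over 6 libraries). Pro-TGG followed at 6.68 points and Pro-CGG at 7.79 points. Nothing was as near to the initiator: Asn-GTT, Arg-TCG and Pro-TGG, its nearest, lay at 15.7, 16.7 and 16.8 points. The i-tRF share of Arg-CCT was 98.9% and that of Asn-GTT 66.8%. In these mixes an anticodon is represented only by reads that match no other anticodon. Pieces that related tRNAs share are thereby left out, and the tRF-3 share of Pro-TGG and of Pro-CGG was 0%. How much of the nearness comes from this way of counting was not tested.

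The places of the fragment ends separated the groups further; these windows were chosen from the same reads, so the values are a description with no test. Initiator reads clustered on a start at position 16, in the D arm: 44.2%, 57.0% and 59.1% of them started there with taurocholate and 61.9%, 54.01% and 49.2% untreated. The main fragment ran from 16 to 31, up to the first base of the anticodon loop, and made up 24.9%, 30.9% and 35.6% of initiator reads with taurocholate and 38.4%, 31.1% and 30.8% untreated. It has 16 nt, the shortest length in the files, so shorter fragments, including any 5′ piece that ends at position 15, could not be seen here. From the same start, 187 reads ended at 40, 173 at 53 and 127 at 33.

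Many initiator 3′ fragments began where those longer i-tRFs ended. Of the initiator reads in the 3′ classes, 61.9 ± 7.16% (SD, n = 6) began at position 54, directly after the 16 to 53 fragment. The whole fragment from 54 to 75, shown next with its CCA end, had 71, 43 and 62 reads with taurocholate and 27, 65 and 36 untreated, counting reads with a mismatch, with 203 of the 304 reads free of any.
initiator 54 to 75: tcgaaaccatcctctgctacca

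The CCA end is added after transcription and is the site of aminoacylation. The next values are the share of 3′ fragments that end with the whole CCA and have no mismatch anywhere. A read with the CCA and a mismatch elsewhere counts as without it. For the initiator the share was 33.3%, 52.4% and 52.1% with taurocholate and 38.7%, 62.4% and 44.9% untreated. For the elongators it was 35.6%, 46.7% and 52.4% with taurocholate and 30%, 51.2% and 60% untreated. The groups overlap for both (exact permutation test, two-sided, p = 0.9 each).

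Elongator reads instead started at the anticodon itself. From 1 base before to 2 bases after the first anticodon base, 81.1%, 85.6% and 83.2% of elongator reads started with taurocholate and 82.5%, 82.2% and 80.2% untreated, against 3.198 ± 1.003% of initiator reads over the 6 libraries. They mostly ended 20 nt after that base, at position 54, which is where the T arm loop begins: 66.5 ± 3.48% of elongator reads ended there and 6.75 ± 1.22% of initiator reads ended at the matching place. Elongator A was the more uniform, with 75.002 ± 2.783% of its reads ending at 54, against 44.1 ± 4.86% for elongator B (SD, n = 6). The single fragment from 34 to 54 made up 39.8 ± 1.68% of elongator A reads and 17.8 ± 3.41% of elongator B reads.

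**Figure D2:**
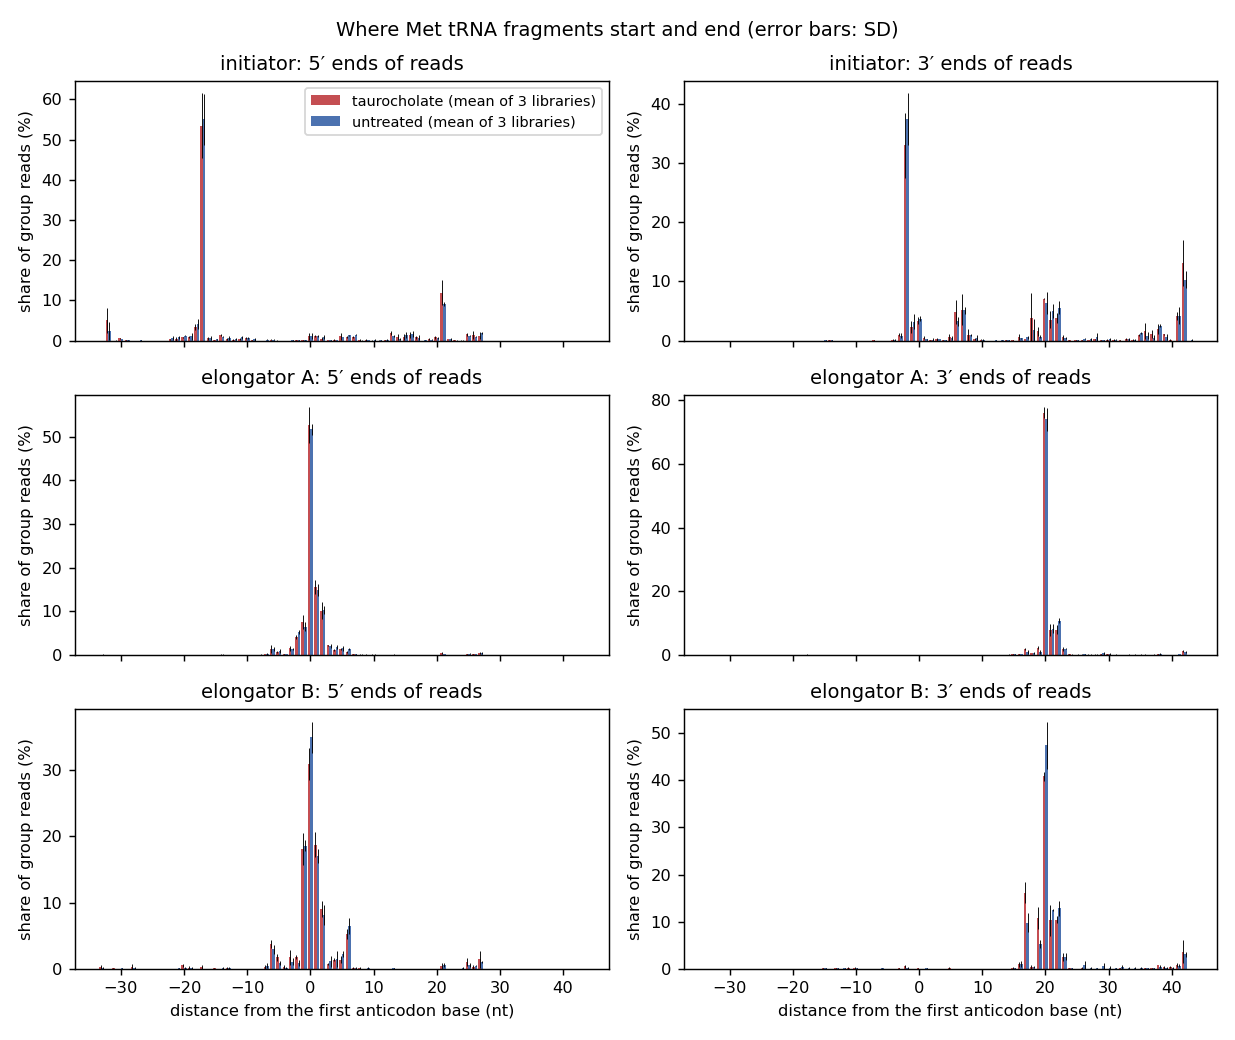
Share of each group's reads (%) that start (left) or end (right) at each distance in nt from the first anticodon base, as means of 3 taurocholate libraries (red) and 3 untreated libraries (blue) with SD bars; the vertical scale differs between panels. Initiator reads start mainly 17 nt before the anticodon, whereas elongator reads start at it and end 20 nt after its first base.

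Lengths followed from these ends. Reads of 16 nt made up 37.0 ± 4.13% of initiator reads and 4.12 ± 0.622% of elongator reads, and the mean read length was 22.5 ± 1.36 nt for the initiator and 21.1 ± 0.127 nt for the elongators (SD, n = 6). Reads that span the whole anticodon were 28.7 ± 3.66% of initiator reads and 65.6 ± 2.05% of elongator reads. The 5′ fragments of the initiator, leaving out reads of 51 nt whose 3′ end was not reached, averaged 31.1 ± 0.498 nt with taurocholate and 32.1 ± 1.27 nt untreated (n = 3 each, exact permutation test, two-sided, p = 0.3). Reads from 1 to 51 made up 104 of the 155 initiator tiRNA-5 reads and were uneven between libraries, with 48, 11 and 8 reads with taurocholate and 0, 32 and 5 untreated.

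The amount of Met fragments was next compared between the treatments. Met reads were 0.682%, 0.825% and 0.878% of nuclear mature tRNA reads with taurocholate and 1.08%, 0.847% and 0.939% untreated. The ranges overlap, and the mean difference of -0.159 percentage points did not pass the exact permutation test (two-sided, p = 0.2). The smallest p that 3 against 3 libraries allow is 0.1, so no such test here can pass 0.05. The difference was -0.102 points without taurocholate 1, -0.0982 points without untreated 1 and -0.213 points without untreated 2. Without reads of 51 nt it was -0.151 points, and in reads of 18 to 40 nt -0.180 points, each with exact p = 0.1 (same test). The initiator share of Met reads was 26.6%, 27.3% and 32.6% with taurocholate and 28.9%, 32.96% and 34.4% untreated, again overlapping (difference -3.26 points, exact p = 0.2), with Wilson intervals of up to 2.06 points to each side. In these bulk libraries a lower level in every cell and fewer cells with the fragment cannot be told apart.

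No Met fragment passed the test of a change with taurocholate. edgeR's quasi-likelihood test was run on 240 fragment features (a class and a tRNA) and called 0 of them at adjusted p under 0.05, a background of 0%. Before adjustment 24 features, or 10%, had p under 0.05, and none of the 8 features of mature Met tRNAs tested was among them. A feature of Met precursors, described under Other observations, was among them. Of 15 Met features, 7 had too few reads to be tested. DESeq2 called 1 of the 240, which is not a Met feature. On simulated counts of these 240 features with 40 altered by known amounts, 51.67% of the 2-fold and 95% of the 4-fold alterations were called.

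Levels below are CPM, counts scaled to a common total of tRNA reads with TMM factors. The elongator A i-tRF, the most abundant Met feature, stood at 4222, 4617 and 3898 CPM with taurocholate and 5098, 3730 and 3328 CPM untreated. The groups overlap and the log2 fold change was 0.07 (SE 0.20, adjusted p = 0.913, edgeR). It was -0.10 with scaling by library totals, -0.08 in error-free reads and -0.06 without untreated 3, so that its sign is not settled.

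The initiator i-tRF stood at 1317, 1891 and 2109 CPM with taurocholate and 2389, 2113 and 2146 CPM untreated. All taurocholate values were lower than the untreated ones (the highest of them, taurocholate 3, only just), and the log2 fold change was -0.32 (SE 0.21, adjusted p = 0.582, edgeR). Without taurocholate 1 it was -0.19. On this scale 18.3% of all 240 features had groups that did not overlap, and of the 8 Met features this was the only one. Scaled by library totals alone the share was 18.3% too, but there the initiator i-tRF overlapped, and the Met features that did not were the i-tRFs of elongator B and of reads that match A and B equally, both lower with taurocholate. The elongator B i-tRF was at 1011, 1502 and 1408 CPM with taurocholate and 1663, 1471 and 1626 CPM untreated, which overlap (log2 fold change -0.28, SE 0.20, adjusted p = 0.608, edgeR), and its log2 fold change without taurocholate 1 was -0.17. All elongator B reads together, over all classes, stood at 1095, 1532 and 1513 CPM with taurocholate and 1732, 1549 and 1687 CPM untreated. Here the groups did not overlap, though taurocholate 2 was just under untreated 2 (exact permutation test, two-sided, p = 0.1, the smallest that 3 against 3 allow). The totals of the initiator, of elongator A and of all Met reads overlapped between the treatments.

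The other Met features tested were less abundant. The initiator tRF-3 averaged 415 ± 59.6 CPM with taurocholate and 403 ± 58.9 CPM untreated (SD, n = 3 each), with a log2 fold change of 0.05 (SE 0.20, adjusted p = 0.921, edgeR) that was negative under 8 other settings, 4 of them with 1 library left out, and reached -0.13 with library totals. The initiator tiRNA-5 was at 179.6, 72.7 and 72.9 CPM with taurocholate and 24.7, 131.7 and 38.3 CPM untreated; its log2 fold change of 0.65 (SE 0.63, adjusted p = 0.722, edgeR) was -0.01 without taurocholate 1. The elongator tRF-3 features averaged 39.8 ± 21.3 CPM (A) and 40.4 ± 20.2 CPM (B) with taurocholate, and 31.2 ± 5.61 CPM (A) and 42.6 ± 5.95 CPM (B) untreated.

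**Figure D3:**
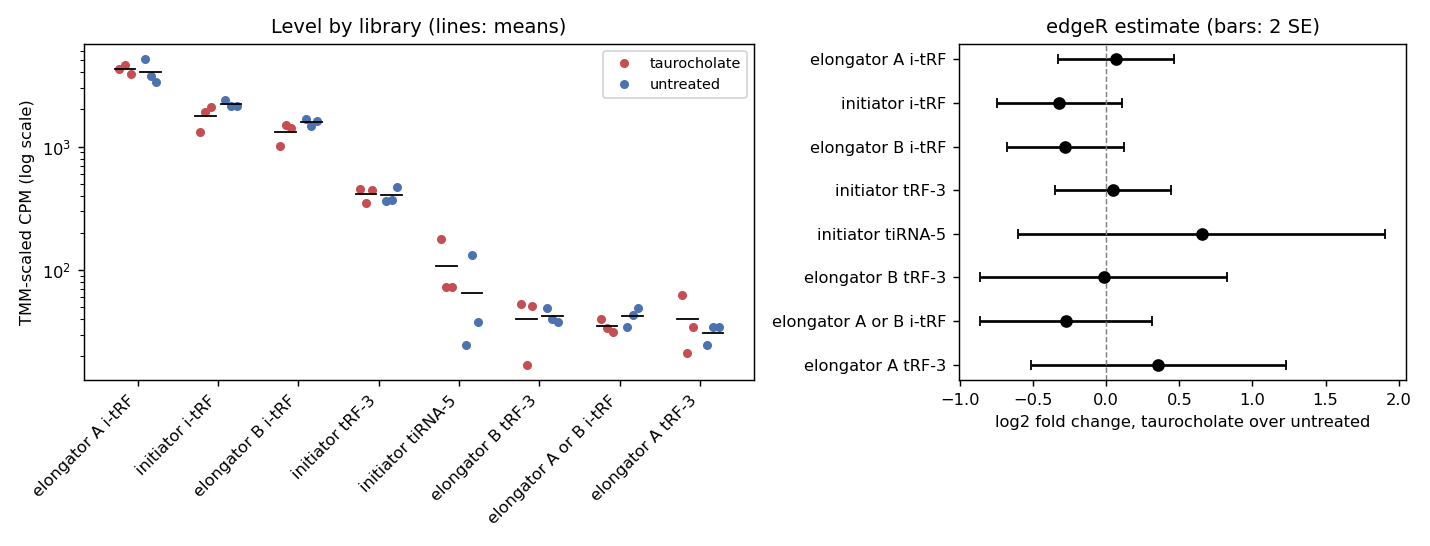
Left, TMM-scaled CPM (log axis) of the 8 Met features tested, a point for each taurocholate library (red) and each untreated library (blue), with a line at each mean. Right, log2 fold change, taurocholate over untreated, with bars of 2 SE; all bars cross 0, and the bar of the initiator tiRNA-5 is the widest.

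Class shares within the Met groups did not move with treatment beyond their spread. For the initiator, i-tRF averaged 75.8 ± 7.56% with taurocholate and 81.8 ± 3.07% untreated, and tRF-3 averaged 18.2 ± 4.29% with taurocholate and 14.9 ± 2.35% untreated. The differences, taurocholate minus untreated, were -5.99 points for i-tRF and 3.34 points for tRF-3, and without taurocholate 1 they were -1.64 and 0.938 points. All 10 class shares of initiator and elongator overlapped between the treatments (the elongator tiRNA-5 was 0 in every library), and the smallest adjusted p was 0.857 (exact permutation tests, n = 3 each).

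Among single read sequences, 2233 were tested with edgeR and 0 were called at adjusted p under 0.05, again 0%. Before adjustment 315 of them, or 14.1%, had p under 0.05, and so had 1 of the 32 Met sequences, 3.12%. DESeq2 called 44 of the 2233, none from Met. On simulated counts of the 2233 sequences with 200 altered, edgeR called 1.333% of the 2-fold and 21.67% of the 4-fold alterations. The initiator and elongator A sequences below are the most abundant i-tRF of each group and those with the smallest p, all free of mismatches except where a capital marks one.
initiator 16 to 31: cggaagcgtgctgggc
initiator 16 to 40: cggaagcgtgctgggcccataaccc
initiator 16 to 33: cggaagcgtgctgggccT
elongator A 34 to 54: cataatctgaaggtcctgagt
elongator A 34 to 54 with T54G: cataatctgaaggtcctgagG

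The 34 to 54 sequence of elongator B had the smallest p of the Met sequences. It had 26, 45 and 50 reads with taurocholate and 49, 95 and 54 untreated, and its log2 fold change after scaling was -0.73 (SE 0.27, adjusted p = 0.321, edgeR). The 34 to 54 sequence of elongator A had 250, 327 and 381 reads with taurocholate and 310, 349 and 246 untreated, with a log2 fold change of 0.00 (SE 0.25). Whether these changes differ from each other was not tested. The 33 to 54 sequence of elongator B had 18, 25 and 25 reads with taurocholate and 27, 40 and 35 untreated (log2 fold change -0.62, SE 0.27, adjusted p = 0.352).

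The other named sequences stayed further from the threshold. The main initiator sequence, 16 to 31, had 86, 86 and 156 reads with taurocholate and 99, 165 and 108 untreated (log2 fold change -0.25, SE 0.21, adjusted p = 0.585). The 16 to 40 sequence had 8, 16 and 17 reads with taurocholate and 5, 14 and 6 untreated (0.70, SE 0.39, adjusted p = 0.443), and the 16 to 33 sequence that ends in a mismatched T had 4, 11 and 6 with taurocholate and 8, 17 and 12 untreated (-0.81, SE 0.45, adjusted p = 0.443). The elongator A sequence with T54G had 149, 6 and 17 reads with taurocholate and 23, 11 and 7 untreated; its log2 fold change of 2.04 (SE 1.22, adjusted p = 0.480) was -0.50 without taurocholate 1. Groups did not overlap for 4 of the 32 Met sequences, against 23.6% of all sequences tested. Some classes had no sequence abundant enough to test: the main initiator tiRNA-5, from 1 to 51, had 36, 3 and 3 error-free reads with taurocholate and 0, 16 and 5 untreated. The main tRF-3 of elongator B, from 61 to 76, had 16 reads over the 6 libraries, and its main tiRNA-3, from 39 to 76, had 8.

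Elongator B reads that end at position 51, inside the T stem, were the clearest separation by place. They made up 17.0%, 17.9% and 13.6% of elongator B reads with taurocholate and 11.1%, 7.39% and 10.9% untreated. Elongator A reads ending at 51 were 1.63%, 1.66% and 2.01% with taurocholate and 1.06%, 1.44% and 0.341% untreated. Both pairs of groups are apart, yet of 33 measures of place, length and mismatch that were compared these were the only such 2, or 6.06%, and their exact p of 0.1 became 0.910 after adjustment over the 33. Mismatched last bases were compared outside the 33, for each of A, C, G and T in initiator and in elongator reads. Of these only elongator reads ending in a mismatched T were apart, at 4.11%, 6.40% and 6.13% with taurocholate and 7.30%, 7.52% and 8.24% untreated. The exact p was 0.1 (permutation test, two-sided), the smallest that 3 against 3 libraries allow, and was not adjusted. The 35 to 51 sequence of elongator B had 11, 14 and 21 reads with taurocholate and 9, 9 and 11 untreated (log2 fold change 0.57, SE 0.33, adjusted p = 0.471, edgeR).

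Mismatches inside the reads were rare except at 1 initiator base. Leaving out the last base of each read, 43 initiator positions were covered by at least 100 reads in every library. At position 51, 222 of 1031 reads (21.5%) carried the substitution G51A, and no other of these positions exceeded 0.736%. The share was 27.6%, 33.9% and 18.2% with taurocholate and 28.4%, 16.1% and 15.4% untreated, which overlap. In the elongators the highest positions, T33A and T50C among them, stayed at 0.861% or less.

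The reads with G51A lay in a place of their own. Of the reads across position 51, those that ended at 60 or before carried it in 3 of 746 cases, and those that ended past 60 carried it in 219 of 285. Reads that started at 45 to 51 and ended at 68 to 71, short of the CCA, carried it in 28 of 28, 30 of 30 and 25 of 25 cases with taurocholate and in 27 of 27, 31 of 31 and 21 of 25 untreated. All 222 reads with G51A are spread over 59 sequences and make up 5.33% of initiator reads. They are counted here by their alignment, and whether they come from the initiator copies named in it was not tested. The most abundant of these sequences had 19 reads and is shown with the differing base in capitals. Without the reads with G51A, an alternative added after the values were seen, the initiator i-tRF share stayed below the elongator one by 19.8 points, with the same exact p.
initiator 46 to 71 with G51A: tcgatAgatcgaaaccatcctctgct

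Other bases were also often mismatched but are covered by fewer reads than the rule asks; they were chosen after their values were seen. At initiator position 9, 33 of 159 reads (20.8%) were mismatched, with 7.69% to 35.3% in the single libraries. At elongator A position 56, 29 of 151 reads (19.2%) were mismatched, with 52.6%, 6.25% and 4.17% with taurocholate and 33.3%, 0% and 0% untreated. The base at position 58 of the elongators is a known site of N1-methyladenosine in tRNAs, and the library protocol includes a demethylation step. Of the 115 elongator B reads across it, 46 (40%) were mismatched, 45 of them as A58T, against 3 of 85 elongator A reads. At the matching initiator base, position 57, 20 of 799 reads (2.50%) were mismatched. By library the elongator B share was 60%, 42.9% and 65% with taurocholate and 22.2%, 48.1% and 16.2% untreated, which overlap.

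**Figure D4:**
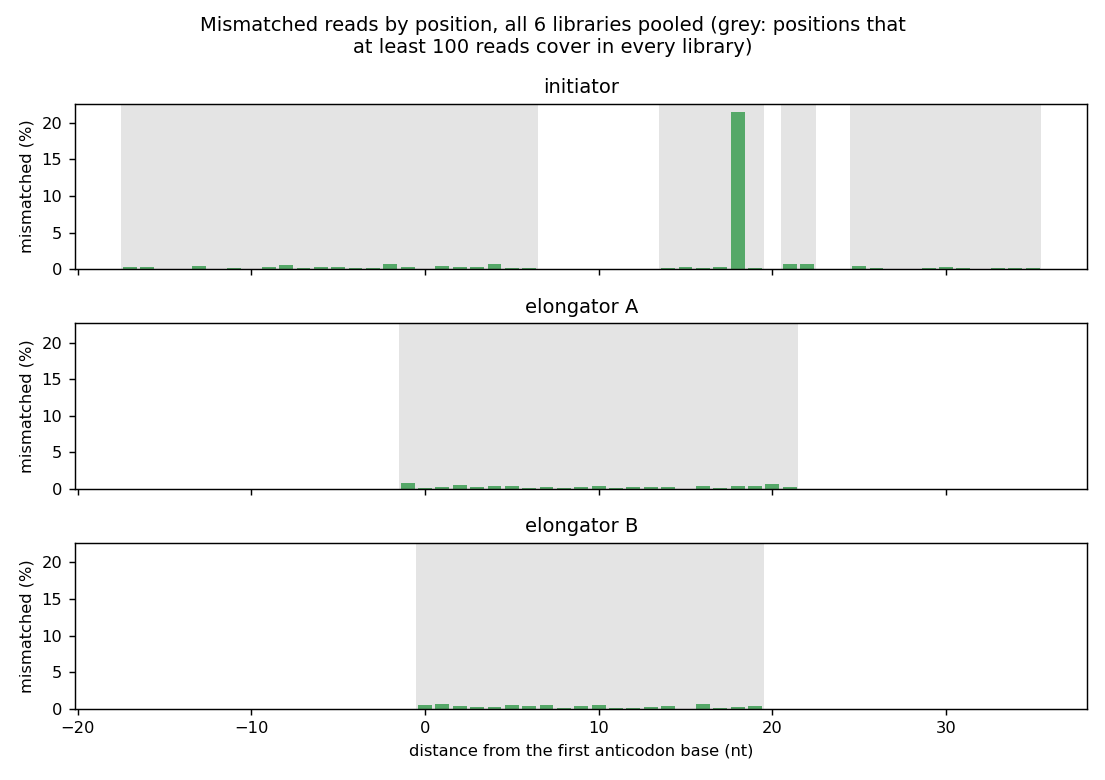
Share of reads (%) with a mismatch at the positions that at least 100 reads cover in every library (grey), given as distance in nt from the first anticodon base, with the 6 libraries pooled and the last base of each read left out; other positions are not drawn. The initiator has 1 high bar, 18 nt after the anticodon start, at 21.5%, and all other bars drawn are under 1%.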

How the data were processed

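Small RNA of 6 AR42J libraries was read on an Illumina NextSeq after deacylation, removal of cyclic phosphates, 5′ phosphorylation and demethylation, per the labels' protocols. Tools were FastQC, cutadapt and Novoalign 2.07.11, per the submitters' processing notes; the genome build is not given in the sources used here, and no coordinates are printed. The deposited values are counts of reads per distinct sequence, with alignments of at most 1 mismatch and lengths of 16 to 51 nt.

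Each read was counted 1 time. Gene copies that share at least 50% of the reads of the smaller copy formed a group. For the 3′ end of a tRNA, the furthest CCA found in reads without error was used (320 of 403 references). Alignments to the other references could not fall into a 3′ class. Differences in counts were fitted in R 4.3.3 with edgeR 4.0.16 (quasi-likelihood, TMM, filterByExpr, group as the sole term, Benjamini-Hochberg over the whole tRNA table); DESeq2 1.42.0 was an alternative. The SE was derived from the F statistic. Shares were compared with two-sided exact permutation tests. The tests were tested on simulated counts in 3 runs.

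The named items are every Met feature tested, the most abundant sequence of each group and class, the 3 sequences of smallest p in each direction at 10 CPM or more, the 3 nearest anticodons and the 3 most mismatched positions of each group. The members and lists were chosen with earlier results of these data known. Libraries were not paired by replicate number in the main fits, and whether the numbers mark pairs is not settled. No 2 libraries of a group differed by as little as sampling noise (chi-square per degree of freedom 18.6 to 105.6). Sequences of elongator B are not reported here.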

Additional observations from a re-analysis of the deposited data

How the results depend on the processing

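The alternatives were run on 38 results, giving 520 values: 449 kept the direction and the side of the threshold, and 38 had the other sign, all of them of results that did not pass to begin with. DESeq2 called 1 feature and 44 sequences, none from Met. Without a filter on low counts edgeR called 3 features and 125 sequences, among them 3 Met sequences, all of elongator A and ending in a mismatched G, which taurocholate 1 held most of. Every leave-one-out fit called 0 features and 0 sequences. With the replicate number as a block (replicate block) 0 features and 0 sequences were called too. Libraries of the same number had correlations of -0.19, 0.04 and 0.29 in their deviations, and libraries of different number had -0.47 to 0.30. These values show no clear pairing, but so few cannot settle whether the libraries were paired. Scaling by library totals moved the median log2 fold change of all features to -0.13, from 0.04 with TMM.

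Several small log2 fold changes had the other sign. The elongator A i-tRF gave -0.10 with library totals and -0.083 in error-free reads, and -0.056 to 0.27 with 1 library left out. The initiator tRF-3 gave -0.13 with library totals, -0.027 with TMM over tRNA and miRNA, -0.10 in error-free reads, -0.0029 with a tolerance of 1 nt, and -0.059 to 0.18 with 1 library left out. The main elongator A sequence gave -0.17 with library totals, -0.00084 with no filter, -0.040 in error-free reads, -0.029 in reads of 18 to 40 nt, and -0.092 to 0.25 with 1 library left out. With 1 library left out, the elongator B tRF-3 ranged from -0.28 to 0.32, the initiator tiRNA-5 from -0.0058 to 1.74, and the elongator A sequence with T54G from -0.50 to 2.97. The cause was not tested.

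Differences between treatments in class share, in percentage points, also had the other sign in places. The initiator tRF-5 gave -0.364 in error-free reads, and the elongator tRF-3 gave -0.298 with each sequence counted 1 time. With 1 library left out, the elongator shares ranged from -0.825 to 0.035 for i-tRF, -0.204 to 0.559 for tRF-3, -0.0229 to 0.227 for tiRNA-3 and -0.0204 to 0.0671 for tRF-5. The mean length of initiator 5′ fragments differed by 0.546 nt in error-free reads, 1.13 nt in reads of 18 to 40 nt and 0.860 nt with a tolerance of 1 nt. For the elongators, the share with the whole CCA and no mismatch differed by 9.42 points in reads of 18 to 40 nt. With a tolerance of 1 nt it differed by 0.193 points. With 1 library left out, the difference ranged from -10.7 to 4.26 points for them and from -7.68 to 4.19 points for the initiator.

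The difference in class mix, initiator minus elongator, kept its sign throughout. With 1 library left out it ranged from -20.3 to -16.9 points for i-tRF, 14.1 to 15.8 for tRF-3, 0.401 to 0.551 for tRF-5 and 2.63 to 4.29 for tiRNA-5, and the smallest exact p that 5 pairs allow, 0.0625, is above 0.05 by construction. Its size moved with read length: the tiRNA-5 difference of 3.72 points was 1.09 points without reads of 51 nt and 1.71 points in reads of 18 to 40 nt, and the tRF-3 difference of 15.2 points was 25.1 points in reads of 18 to 40 nt, each with the same exact p. The tRF-5 difference was 0.316 points in error-free reads and 0.185 points with a tolerance of 1 nt, where it no longer passed. The tiRNA-3 difference was -1.42 points with each sequence counted 1 time and -0.441 points with tRFs of up to 32 nt, where it passed.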

Other observations

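Reads of the trailer, the stretch cut off a tRNA precursor after its 3′ end, lie outside the mature tRNAs described above. Met-CAT precursors had 6587 such reads (tRF-1) aligned to them, against 13584 reads from the mature Met tRNAs. Of these, 6581 were aligned to 1 initiator copy, chr2.trna7907. They numbered 805, 798 and 1175 in the taurocholate libraries and 1147, 1461 and 1201 in the untreated libraries, before scaling. The log2 fold change after scaling was -0.56 (SE 0.20, adjusted p = 0.462, edgeR), which does not pass. Before adjustment its p was 0.024 (edgeR), and 10% of all 240 features had p under 0.05.

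Almost no trailer read matched its precursor exactly. At the base shown in capitals (A7G, counted from 1 at the 5′ end of the read), 6571 of the 6581 reads differed from the aligned precursor, and whether they come from that copy was not tested. The most abundant sequence had 638, 585 and 895 reads with taurocholate and 869, 1055 and 898 untreated, and it ends in a run of T, as is known of RNA polymerase III transcripts.
trailer read aligned to chr2.trna7907: tcggagGctttgtttt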
